A study of Mus musculus with 21 samples.

Results

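The genes described here are 10 markers of resident and recruited macrophages, picked by name from the 56691 genes of the deposited table: *Lyve1*, *Timd4*, *Folr2*, *Cd163*, *Mrc1*, *Csf1r*, *Adgre1*, *Cx3cr1*, *Ccr2* and *Ly6c2*. All 10 are in the table, and 9 passed the filter of a mean FPKM (fragments per kilobase of gene, scaled by the library total) of at least 0.5. *Timd4*, at a mean of 0.102, did not pass and was left out of the edgeR fit. RNA-seq was made of 21 mouse heart libraries in 4 groups: 5 Control libraries from mice without a tumor given normal saline, 5 DOX libraries from mice without a tumor given doxorubicin (DOX), 6 Tb libraries from tumor-bearing mice given saline and 5 Tb-DOX libraries from tumor-bearing mice given DOX. DOX, an anthracycline used in chemotherapy, was injected into the abdomen in 3 weekly doses of 5 mg/kg, and 4T1 mouse breast cancer cells placed under the skin gave the tumors. The strain, sex and age of the mice are not given in the sources used here, nor is whether each library came from its own mouse, so p-values measure the spread between these libraries. The labels name the tumor line as the source of every library, whereas the study's methods describe hearts. The cardiac myosin gene *Myh6* was at 14771 to 32856 CPM (counts scaled by library total and TMM) in the 21 libraries.

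Macrophages of the adult heart comprise long-lived resident cells, which were seeded largely before birth and renew themselves, and cells that arise from circulating monocytes. The resident cells carry the hyaluronan receptor LYVE1, the phosphatidylserine receptor TIMD4 and the folate receptor FOLR2, and share the scavenger receptor CD163 and the mannose receptor MRC1 with other tissue macrophages. CSF1R, the receptor that macrophages need for survival, and ADGRE1 (F4/80) are found on macrophages in general. CX3CR1 and CCR2 are chemokine receptors, the latter needed by monocytes to leave the bone marrow, and LY6C2 is a surface antigen of inflammatory monocytes.

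Library totals were 13521200 to 18601445 counts. Marker genes of other cell types differed between the groups as well. The sum of 10 neutrophil markers was 2.52 to 4.68 CPM in Control, 7.71 to 60.5 in DOX, 597 to 5556 in Tb and 895 to 3731 in Tb-DOX, and 6 of the 10 had at most 3 counts in every Control library. The sum of 6 red cell markers was 204 to 797 CPM in Control, 4.73 to 132 in DOX, 370 to 832 in Tb and 2.47 to 28.9 in Tb-DOX. That of 6 cardiomyocyte markers was 47012 to 57629 in Control, 61973 to 72679 in DOX, 38858 to 48704 in Tb and 51514 to 62655 in Tb-DOX. With DOX this sum was higher without overlap in both tumor states, but the 6 genes did not move together. In hearts without a tumor *Tnnt2* (log2 fold change 0.96, adjusted p = 2.64e-05) and *Myh6* (0.43, adjusted p = 0.00341) rose with DOX. *Ttn* fell (−0.39, adjusted p = 0.0494, lost in 17 of the 21 fits that left out 1 library), and 3 did not pass. In tumor-bearing hearts 2 of the 6 rose with DOX and none fell. Of 6 fibroblast genes the collagen genes *Col1a1* (−2.19, adjusted p = 1.12e-05), *Col1a2* (−2.12, adjusted p = 3.21e-06) and *Col3a1* (−3.71, adjusted p = 1.74e-05) fell with DOX in hearts without a tumor, *Pdgfra* rose (0.44, adjusted p = 0.00661) and *Dcn* did not pass (0.3, adjusted p = 0.0779), and in tumor-bearing hearts 2 of the 6 fell. The part of these cell types in the results was not tested. Library DOX-4 stood apart with 311 CPM of the T cell gene *Cd3e*, and Tb-5 with 42.7 CPM of it together with the lowest sum of dendritic cell markers (9.74 CPM). In DOX-4 *Cd3e* held 3854 counts and each of the 10 other T cell markers listed at most 11 (*Cd8a*), and in Tb-5 *Cd3e* held 706 and *Cd3d* 44, the highest *Cd3d* count of the 21 libraries. Results were also computed without DOX-4 and Tb-5.

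Per length of gene, *Lyve1* and *Mrc1* were the most abundant of the 10. In Control hearts the mean FPKM was 5.44 ± 1.08 (SD, n = 5) for *Lyve1*, 5.18 ± 0.973 for *Mrc1*, 3.79 ± 0.538 for *Csf1r* and 3.67 ± 1.03 for *Cd163*, and each of these 4 overlapped its neighbour in the order. *Adgre1* followed at 1.63 ± 0.377 with no overlap with *Cd163*. *Folr2* (1.14), *Cx3cr1* (0.702), *Ccr2* (0.682) and *Ly6c2* (0.622) came next, each overlapping its neighbour, and *Timd4* was lowest (0.164). *Lyve1* was highest on average in all 4 groups and *Timd4* lowest. *Ly6c2* moved most within the order, from the 9th place in Control and the 8th in Tb to the 5th in both DOX-treated groups, and *Ccr2* was 8th in Control and DOX, 5th in Tb and 7th in Tb-DOX.

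**Figure D1:**
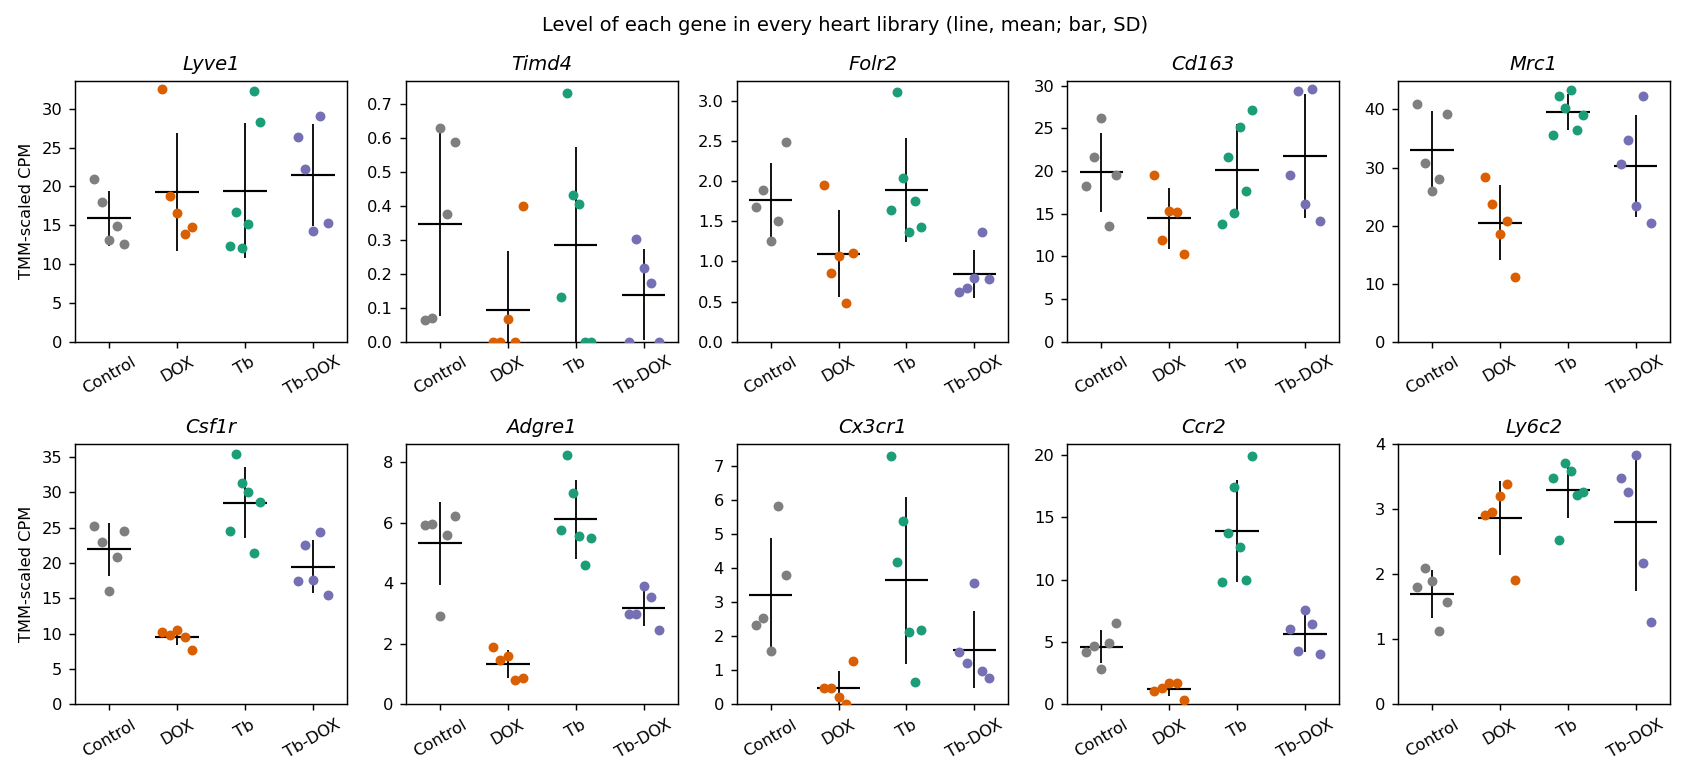
TMM-scaled CPM (linear axes from 0) of the 10 genes in every library of the Control, DOX, Tb and Tb-DOX groups; lines are group means and bars 1 SD. The DOX libraries of Csf1r, Adgre1, Cx3cr1 and Ccr2 lay below all Control libraries, those of Lyve1 did not, and the Tb libraries of Ccr2 and Ly6c2 lay above all Control libraries.

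The first question was what DOX did to these genes in hearts without a tumor. The general macrophage receptors *Csf1r* and *Adgre1* and both chemokine receptors fell, as did the resident receptor *Mrc1*, and *Ly6c2* rose. Of the 9 genes tested 6 passed an adjusted p of 0.05, 5 lower and 1 higher, where 36.2% of all 13990 genes tested passed (18% higher and 18.2% lower). The median log2 fold change of the 9 was −0.68, beside 0.00 over all genes tested. In 4 of the 9 the DOX libraries all lay below the Control libraries, which 13.3% of all genes did. Adjusted p-values are from edgeR's quasi-likelihood test, and each fold change stands with its SE. In bulk tissue, fewer cells of a type and less RNA per cell cannot be told apart.

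*Adgre1* was at 5.93, 5.95, 2.92, 5.58 and 6.21 CPM in the 5 Control libraries and at 1.89, 1.47, 1.60, 0.806 and 0.875 in the 5 DOX libraries. The groups did not overlap, although Control-3 stood well below the other Control libraries. The fitted log2 fold change was −1.98 ± 0.254 (3.94-fold lower, adjusted p = 1.3e-05). *Csf1r* was at 25.3, 23.0, 16.0, 20.8 and 24.5 CPM in Control and at 10.2, 9.85, 10.5, 9.59 and 7.63 in DOX. Here too every DOX library lay below every Control library, and the DOX libraries were close together. The log2 fold change was −1.2 ± 0.158 (2.29-fold lower, adjusted p = 1.62e-05).

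*Ccr2* (chr9:123901987-123913594 of GRCm39, + strand) was at 4.19, 4.69, 2.81, 4.90 and 6.54 CPM in Control and at 1.08, 1.32, 1.73, 1.69 and 0.318 in DOX. The groups did not overlap, and DOX-5, with 4 counts, was lowest. The log2 fold change was −1.9 ± 0.322 (adjusted p = 0.000155). *Cx3cr1*, on the opposite strand of the same chromosome (chr9:119730682-119898945), was at 2.32, 2.52, 1.55, 5.81 and 3.79 CPM in Control and at 0.473, 0.465, 0.200, 0 and 1.27 in DOX. Its DOX libraries held 0 to 16 counts each, so this drop, the largest fitted of the 9 (−2.72 ± 0.664, adjusted p = 0.00321), was also the least precise. It ranged from −3.42 without DOX-5 to −2.39 without Control-4.

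*Mrc1*, the mannose receptor gene, was at 41.0, 30.7, 26.0, 28.1 and 39.2 CPM in Control and at 28.4, 23.7, 18.5, 20.8 and 11.2 in DOX, where DOX-1 overlapped the Control range. The log2 fold change was −0.68 ± 0.204 (adjusted p = 0.0123). *Cd163* was at 13.6 to 26.2 CPM in Control and 10.3 to 19.5 in DOX (−0.46 ± 0.235, adjusted p = 0.132). *Folr2* was at 1.26 to 2.49 CPM in Control and 0.484 to 1.96 in DOX (−0.67 ± 0.331, adjusted p = 0.118). All DOX libraries of *Cd163*, and all of *Folr2* but DOX-1, lay below the Control mean, and without DOX-1 *Folr2* passed the test at −0.99 (adjusted p = 0.0256), as it did with all libraries in both limma fits on log2 FPKM. *Lyve1* was at 21, 18, 13.1, 14.9 and 12.6 CPM in Control and at 32.5, 18.8, 16.6, 13.9 and 14.8 in DOX. DOX-1 lay above every Control library and the other 4 DOX libraries within the Control range, with a log2 fold change of 0.28 ± 0.288 (adjusted p = 0.462), or 0.01 without DOX-1. *Timd4* held 1, 1, 11, 5 and 9 counts in Control and 0, 0, 1, 0 and 5 in DOX, and its two-sided exact permutation p on log2(FPKM + 0.1) was 0.0714, where the smallest that 5 against 5 libraries allow is 0.00794. A count of 0 at this depth allows up to 3 counts, so a low level of *Timd4* was not detectable in 3 DOX libraries.

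*Ly6c2* was at 1.81, 2.10, 1.89, 1.13 and 1.57 CPM in Control and at 2.91, 2.95, 3.20, 3.38 and 1.91 in DOX. All DOX libraries lay above the Control mean and 4 of the 5 above every Control library. The log2 fold change was 0.75 ± 0.259 (adjusted p = 0.0277). This call was lost in 4 of the 21 fits that left out 1 library (without Control-4, Control-5, DOX-3 or DOX-4, adjusted p up to 0.0738), without DOX-4 and Tb-5 (0.69, adjusted p = 0.0576) and with library totals, no filter or either limma fit.

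**Figure D2:**
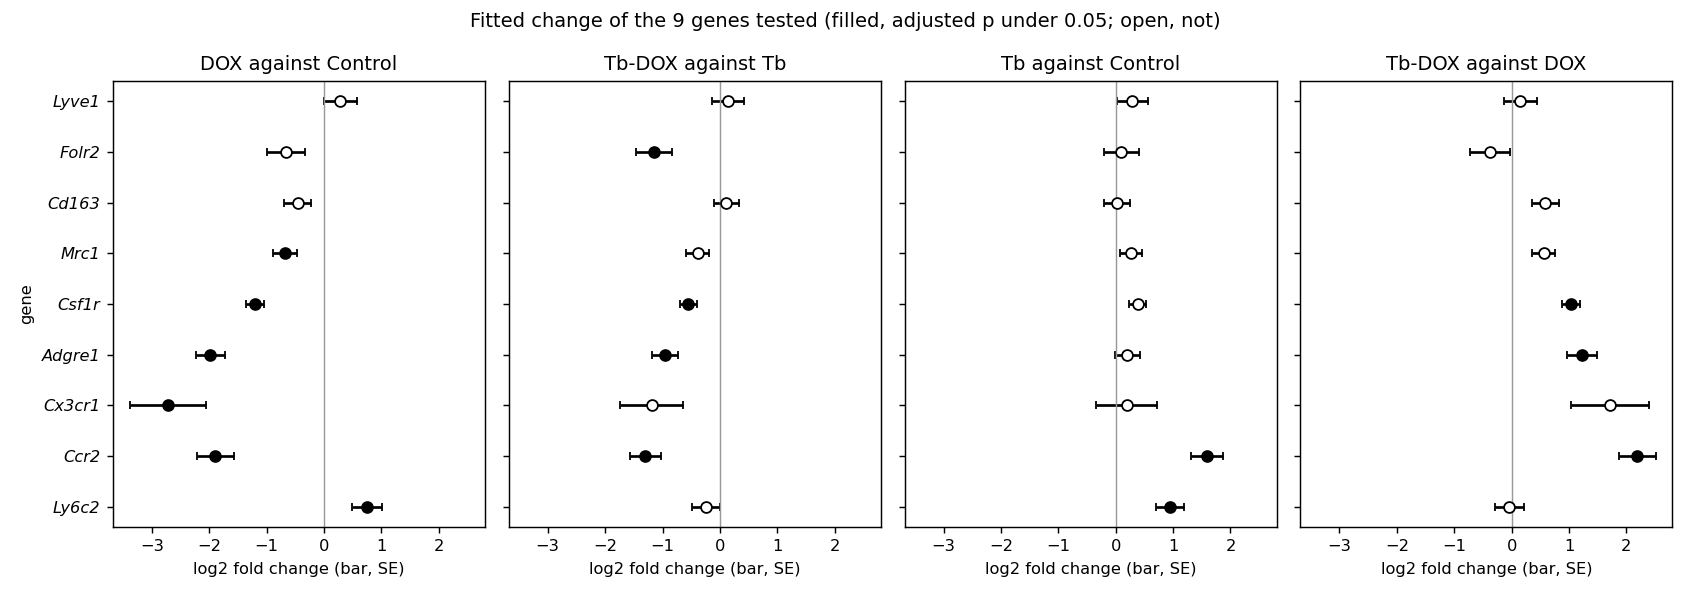
Log2 fold change (x axis, bars are 1 SE) of the 9 genes tested in the 4 comparisons between groups; filled points have an adjusted p under 0.05. With DOX in hearts without a tumor 5 filled points lay to the left of 0 and 1 (Ly6c2) to the right, and with the tumor alone Ccr2 and Ly6c2 were the filled points.

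The reads of *Ly6c2* are hard to assign, because *Ly6c1*, a gene of blood endothelium, lies beside it on the minus strand of chromosome 15 and is nearly the same in sequence. The others of the 10 were not checked for shared sequence. In GRCm39 *Ly6c2* spans chr15:74980007-74983819 and *Ly6c1* chr15:74915867-74920679. The coding sequences of the transcripts Ly6c2-201 and Ly6c1-201 (GENCODE M21) are both 393 bases long and differ at 9 of them (97.7% identical). Their first 90 coding bases, which hold 6 of the 9 differences, are shown with the differing bases in capitals.
Ly6c2: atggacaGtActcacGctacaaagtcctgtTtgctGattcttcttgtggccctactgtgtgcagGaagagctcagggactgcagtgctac
Ly6c1: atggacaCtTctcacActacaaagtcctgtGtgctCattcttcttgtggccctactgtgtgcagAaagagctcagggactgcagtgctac
Of all 50-base windows of Ly6c2-201, 32.6% occur unchanged in a *Ly6c1* transcript, and of all 100-base windows 15.8%. *Ly6c1* was far more abundant, at a mean of 141 CPM in Control and 209 in DOX, and it rose as well with DOX (0.57, adjusted p = 0.0051). *Ly6c2* made up 0.875% to 1.35% of the counts of both genes in Control and 1.07% to 1.55% in DOX. The sum of 6 blood endothelial markers was 594 to 753 CPM in Control and 550 to 702 in DOX. The *Ly6c2* shares overlapped between Control and DOX, whereas those of Tb (1.54% to 2.36%) lay above all Control values. What part of the *Ly6c2* counts came from *Ly6c1* was not tested.

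The bases ahead of both start sites were also read, and their likeness was not measured. In the RefSeq promoter table (GRCm38.p6), where 7 of the 10 genes have an entry and *Lyve1*, *Csf1r* and *Adgre1* have none, the 120 bases before the first listed start read as follows on the gene's own strand, with each GGAA or TTCC in capitals, the core bound by ETS factors such as PU.1, the master regulator of myeloid cells.
Ly6c2, chr15:75111972-75112091, minus strand: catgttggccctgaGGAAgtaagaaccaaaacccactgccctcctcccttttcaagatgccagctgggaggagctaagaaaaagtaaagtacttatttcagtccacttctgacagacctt
Ly6c1, chr15:75048838-75048957, minus strand: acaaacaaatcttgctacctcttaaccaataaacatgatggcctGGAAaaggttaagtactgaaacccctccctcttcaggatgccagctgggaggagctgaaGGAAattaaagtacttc
The core is common: 73.4% of the 32851 windows of this length in the table hold it on either strand. The longer PU box GAGGAAGT (searched on both strands, overlapping the core) occurs in the *Ly6c2* window shown and in 1.33% of all windows of 120 bases. Over the 300 bases of each entry, where 3.2% of all promoters hold it, it was found for both listed starts of *Ly6c2* and for the second listed start of *Ly6c1*, and not for *Timd4*, *Folr2*, *Cd163*, *Mrc1*, *Cx3cr1* or *Ccr2*. For *Cx3cr1* and *Ccr2* all 120 bases before the listed start lie in exons annotated by GENCODE M21. A match of letters is not a binding site, and no match covers only this window.

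Because *Csf1r* fell with DOX, the other genes were also set against it within each library, as a ratio of FPKM values and without a test. Per unit of *Csf1r*, *Lyve1* was at 1.01 to 1.64 in Control (median 1.55) and at 2.88 to 6.29 in DOX (median 3.77), and *Ly6c2* at 0.115 to 0.248 and 0.527 to 0.744. Neither pair of ranges overlapped. The fall of *Csf1r* raises such a ratio even where the other gene is unchanged. How many of all genes separate in this way was not counted. The ratio of *Mrc1* was 1.21 to 1.47 in Control and 1.33 to 2.52 in DOX, that of *Cd163* 0.69 to 1.73 and 1.28 to 2.02, and that of *Ccr2* 0.142 to 0.228 and 0.0356 to 0.151, each with overlap. The *Adgre1* ratio was 0.325 to 0.478 in Control and 0.15 to 0.331 in DOX, with overlap, and those of *Folr2*, *Cx3cr1* and *Timd4* overlapped too. Per unit of *Adgre1*, which fell as well, *Mrc1* (2.55 to 4.53 in Control, 5.89 to 13.1 in DOX) and *Folr2* (0.566 to 0.903, 1.21 to 2.67) did not overlap. Neither did *Lyve1* and *Ly6c2*, whereas *Cd163*, *Csf1r*, *Cx3cr1*, *Ccr2* and *Timd4* did. In Tb and Tb-DOX the *Lyve1* ratio to *Csf1r* was 0.762 to 2.99 and 1.61 to 2.99, with overlap. The *Ly6c2* ratio to *Csf1r* in Tb-DOX (0.171 to 0.46) lay below that in DOX, without overlap.

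**Figure D3:**
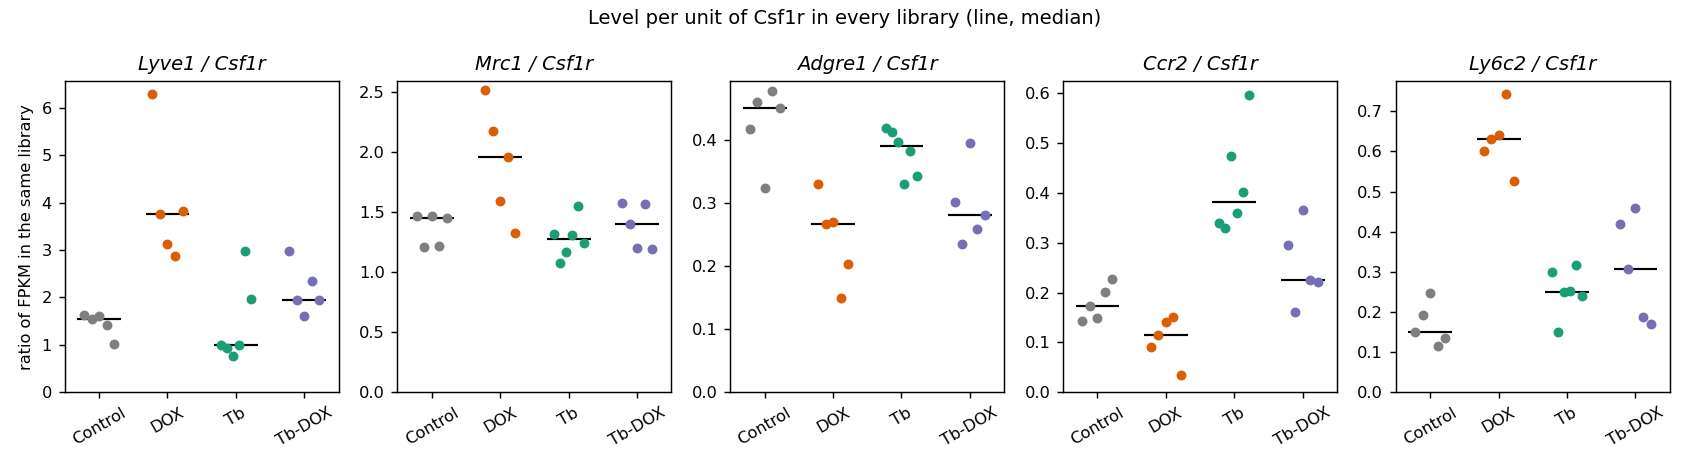
FPKM of Lyve1, Mrc1, Adgre1, Ccr2 and Ly6c2 divided by the FPKM of Csf1r in the same library (linear axes from 0), by group; lines are medians. The DOX libraries of Lyve1 (2.88 to 6.29) and Ly6c2 (0.527 to 0.744) lay above all Control libraries, as did the Tb libraries of Ccr2 (0.329 to 0.596). Csf1r itself was lower in DOX than in Control, which raises the ratios.

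The same question was then put to tumor-bearing hearts, in libraries that share none with the first comparison. Both comparisons come from 1 fit, in which the 4 groups share an estimate of the spread, so they are not fully independent. Again *Ccr2*, *Adgre1* and *Csf1r* fell with DOX, now with *Folr2*, and none of the 9 rose. The count was 4 of 9, all lower, where 4.72% of all genes tested passed (2.54% lower). The median log2 fold change of the 9 was −0.55, beside −0.02 over all genes. In 2 of the 9 the Tb-DOX libraries all lay below the Tb libraries, which 2.23% of all genes did.

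*Ccr2* was at 9.77 to 19.9 CPM in Tb (median of 6 libraries 13.2) and at 6.06, 4.24, 7.53, 6.47 and 4.01 in Tb-DOX. The groups did not overlap, and the log2 fold change was −1.3 ± 0.269 (2.46-fold lower, adjusted p = 0.00937). *Adgre1* was at 4.6 to 8.24 CPM in Tb (median 5.67) and at 2.97, 2.97, 3.91, 3.55 and 2.45 in Tb-DOX, again without overlap. Its log2 fold change was −0.95 ± 0.226 (adjusted p = 0.0202), and the call was lost in 4 of the 21 fits that left out 1 library (without Tb-2, Tb-DOX-1, Tb-DOX-2 or Tb-DOX-5, adjusted p up to 0.0637). *Csf1r* was at 21.4 to 35.5 CPM in Tb (median 29.3) and at 17.5, 22.5, 17.6, 24.4 and 15.5 in Tb-DOX. These ranges overlapped, and the log2 fold change was −0.55 ± 0.147 (adjusted p = 0.0349), lost in 6 of the 21 such fits (without Tb-2, Tb-3, Tb-4, Tb-DOX-1, Tb-DOX-3 or Tb-DOX-5, adjusted p up to 0.105), and also with library totals, either limma fit or only the groups compared.

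*Folr2* was at 1.37 to 3.12 CPM in Tb (median 1.7) and at 0.617, 0.667, 0.797, 1.37 and 0.778 in Tb-DOX. Tb-DOX-4 reached the lowest Tb library. The log2 fold change was −1.15 ± 0.32 (adjusted p = 0.0424), close to the threshold, and it was lost in 10 of the 21 fits (without Control-1, Control-2, Control-4, Tb-1, Tb-2, Tb-3, Tb-DOX-1, Tb-DOX-2, Tb-DOX-3 or Tb-DOX-5, adjusted p up to 0.107), with the replicate block (−1.18, adjusted p = 0.0672), and with library totals, no filter or only the groups compared. *Cx3cr1* was at 0.666 to 7.28 CPM in Tb and 0.778 to 3.55 in Tb-DOX (−1.19 ± 0.554, adjusted p = 0.227), *Mrc1* at 35.6 to 43.3 and 20.4 to 42.4 (−0.39 ± 0.193, adjusted p = 0.265), *Lyve1* at 12.1 to 32.3 and 14.3 to 29.1 (0.14 ± 0.272, adjusted p = 0.819) and *Cd163* at 13.8 to 27.2 and 14.2 to 29.6 (0.11 ± 0.221, adjusted p = 0.819). *Ly6c2* was at 2.52 to 3.71 CPM in Tb and 1.26 to 3.84 in Tb-DOX (−0.24 ± 0.238, adjusted p = 0.623).

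Whether the change with DOX differed between the tumor states was tested with the interaction term, the log2 fold change with DOX in tumor-bearing hearts minus that in hearts without a tumor. None of the 9 genes passed the adjusted p in edgeR, where 8.94% of all genes did. At an unadjusted p of 0.05 there were 3, beside 28.9% of all genes, and DESeq2 called 3, the same genes. *Adgre1* (1.03 ± 0.336, adjusted p = 0.055), *Csf1r* (0.65 ± 0.213, adjusted p = 0.0583) and *Ly6c2* (−0.99 ± 0.352, adjusted p = 0.0743) were nearest the threshold. The adjusted p of *Adgre1* was 0.0306 to 0.103 when 1 library was left out, under 0.05 without Control-3, DOX-1 or Tb-2, and that of *Csf1r* was 0.037 to 0.0988, under 0.05 without Control-3, Tb-2 or Tb-DOX-5. *Ly6c2* passed without DOX-5 (adjusted p = 0.0439). For *Lyve1* the term was −0.14 ± 0.396 (adjusted p = 0.842). For *Adgre1* and for *Csf1r*, a difference of the drop between the tumor states was thus called by DESeq2 and with library totals. By edgeR with TMM on all 21 libraries it was not called. Equal drops in both states were not shown.

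With the tumor alone, *Ccr2* and *Ly6c2* rose and no other gene of the 9 was called. Here 2 of 9 passed, both higher, where 6.28% of all genes passed (5% higher), and in both the Tb libraries all lay above the Control libraries, as in 4.21% of all genes. *Ccr2* rose from 2.81 to 6.54 CPM in Control to 9.77 to 19.9 in Tb (1.59 ± 0.274, 3.01-fold, adjusted p = 0.000507). *Ly6c2* rose from 1.13 to 2.10 CPM to 2.52 to 3.71 (0.95 ± 0.247, adjusted p = 0.0219), a call lost without Control-4 or Control-5 (adjusted p up to 0.0706). *Csf1r*, at 16.0 to 25.3 and 21.4 to 35.5 CPM, overlapped (0.38 ± 0.146, adjusted p = 0.139), and *Lyve1*, *Folr2*, *Cd163*, *Mrc1*, *Adgre1* and *Cx3cr1* had log2 fold changes of 0.02 to 0.29, with adjusted p of 0.456 to 0.968. Per unit of *Csf1r*, *Ccr2* was at 0.142 to 0.228 in Control and 0.329 to 0.596 in Tb, without overlap. This comparison shares its Control libraries with the first and its Tb libraries with the second.

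Among DOX-treated hearts, those of tumor-bearing mice carried more *Ccr2*, *Adgre1* and *Csf1r* RNA. *Ccr2* (2.19 ± 0.319, 4.56-fold, adjusted p = 6.7e-05), *Adgre1* (1.23 ± 0.256, adjusted p = 0.00219) and *Csf1r* (1.03 ± 0.157, adjusted p = 0.000118) were higher in Tb-DOX than in DOX, and in all 3 the Tb-DOX libraries lay above all DOX libraries. That is 3 of 9, where 17.5% of all genes passed (9.52% higher) and 7.66% lay wholly above. *Mrc1* (0.56 ± 0.204, adjusted p = 0.0615), *Cd163* (0.59 ± 0.234, adjusted p = 0.0841) and *Cx3cr1* (1.72 ± 0.679, adjusted p = 0.0847) did not pass. *Lyve1* had a log2 fold change of 0.15 ± 0.286, *Ly6c2* of −0.04 ± 0.251 and *Folr2* of −0.38 ± 0.345. Without DOX-1 or Tb-DOX-5 *Mrc1* and *Cd163* passed as well, and without Tb-5 *Mrc1* and *Cx3cr1* did, for 5 of the 9. Without DOX-5 *Cx3cr1* did, at 2.41, for 4. With library totals in place of TMM the median over all genes tested was 0.18 and 6 of the 9 passed, and with DESeq2 5 did. Both groups are shared with the comparisons above.

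Lists of other macrophage genes were counted in the same fit. For scale, with DOX in hearts without a tumor 18.2% of all genes tested fell and 18% rose. With DOX in tumor-bearing hearts 4.72% passed (2.54% lower), and with the tumor alone 6.28% (5% higher). The interaction passed for 8.94%. Of 20 genes associated with resident macrophages 15 were tested, and with DOX in hearts without a tumor 9 fell and 1 (*Mertk*, a receptor for the uptake of dying cells, at 0.68, adjusted p = 0.0165, or 0.0598 without DOX-1) rose, with a median log2 fold change of −1.07. The scavenger receptor gene *Stab1* fell from 45.6 to 52.9 CPM in Control to 15.7 to 23.2 in DOX (−1.34, adjusted p = 3.25e-06), the Fc receptor gene *Fcgrt* by 1.07 on the log2 scale (adjusted p = 4.79e-05) and the carbonyl reductase gene *Cbr2* from 4.90 to 11.3 CPM to 1.11 to 3.18 (−2.05, adjusted p = 5.56e-05). *Selenop* (−0.08) and *Gas6* (−0.2), the most abundant of the list and made by many other cells, did not pass. For the genes of the list that fell, too, the part of other cells in the counts was not tested. With DOX in tumor-bearing hearts 1 of the 15 fell (*Mgl2*, a lectin gene, by 2.00 on the log2 scale, adjusted p = 0.00833) and none rose. With the tumor alone 1 of the 15 fell as well (*Fcgrt*, −0.64, adjusted p = 0.00972) and none rose, so *Fcgrt* was already lower in Tb than in Control. The interaction passed for 6 of the 15, all higher (2 to 6 when 1 library was left out, with 2 without DOX-3 or DOX-4), among them *Stab1* (1.19, adjusted p = 0.00753), *Cbr2* (1.51, adjusted p = 0.0295) and *Fcgrt* (0.82, adjusted p = 0.0279). That of *Cbr2* was lost without Control-5, DOX-3, DOX-4 or Tb-DOX-2 (adjusted p up to 0.0576) and that of *Fcgrt* without DOX-3 or DOX-4 (up to 0.0547).

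Of 20 genes of macrophages in general 19 were tested, and with DOX in hearts without a tumor 8 fell and none rose (median −0.8). The lysozyme gene *Lyz2* fell from 102 to 133 CPM to 46.7 to 78.4 (−0.94, adjusted p = 0.000489), and the complement genes *C1qa* (−0.82, adjusted p = 0.00451) and *C1qc* (−0.92, adjusted p = 0.00076) and the cytoskeletal gene *Aif1* (−2.21, adjusted p = 0.000945) fell too. In tumor-bearing hearts 0 of the 19 passed with DOX in edgeR and 0 in DESeq2, 4 having an unadjusted p under 0.05, with a median of −0.46, and without Tb-DOX-4 3 passed, all lower. With the tumor alone 11 of the 19 rose (median 1), among them *Lyz2* (0.73, adjusted p = 0.0113) and *Tyrobp*, an adaptor of myeloid receptors (2.19, adjusted p = 0.000261), whereas *C1qa* (0.1) and *C1qc* (0.2) did not pass. Several of the 11, such as *Spi1*, *Itgam* and *Tyrobp*, are genes of neutrophils as well, and all 10 neutrophil markers rose with the tumor, *S100a9* from at most 1.96 CPM in Control to 259 CPM or more in Tb. The part of these cells in the rise was not tested.

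Of 18 monocyte genes 10 were tested. With DOX in hearts without a tumor 5 rose (2 to 6 when 1 library was left out, with 2 without Control-2) and none fell (1 without DOX-1), among them *Chil3*, a chitinase-like protein gene (5.02, adjusted p = 0.0105, or 6.48 without Control-1), which neutrophils also express. *Chil3* was at no more than 0.387 CPM in Control and at 1.32 to 7.17 in DOX. The neutrophil marker *S100a8* rose in the same comparison (4.16, adjusted p = 0.0031, or 3.23 without DOX-3), and its part was not tested. With the tumor alone 6 of the 10 rose, among them the interferon-induced gene *Ifitm6* (adjusted p = 2.85e-07), which had 0 to 3 counts in each Control library and 21.5 to 192 CPM in Tb, and the sum over the list was 16.2 to 31.3 CPM in Control and 72.7 to 446 in Tb. With DOX in tumor-bearing hearts 0 of the 10 passed in edgeR and 0 in DESeq2, 1 having an unadjusted p under 0.05.

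Among the ligands, *Csf1*, which feeds CSF1R, was at 27.4 to 45.5 CPM in Control, 21.4 to 40.0 in DOX, 47.6 to 66.5 in Tb and 34.9 to 81.5 in Tb-DOX. It rose with the tumor (0.69, adjusted p = 0.0334, lost without Control-1, Control-2, Control-3, Control-4, Tb-3, Tb-4 or Tb-5, up to 0.0957) and did not pass with DOX (−0.24, adjusted p = 0.365). *Ccl7*, a ligand of CCR2, was at 0.262 to 0.838 CPM in Control and 0.859 to 19.0 in Tb (median 2.27) and rose with the tumor (3.29, adjusted p = 0.0101, or 2.04 and 0.0324 without Tb-5). *Ccl12*, another, fell with DOX in hearts without a tumor (−1.82, adjusted p = 0.0314), by 2.80 without DOX-1, and the call was lost without Control-4, Control-5, DOX-2, DOX-3, DOX-4 or DOX-5 (adjusted p up to 0.0989). *Ccl2* itself varied widely, from 0.658 to 35.1 CPM in Tb, and did not pass with DOX (0.3, adjusted p = 0.854) or with the tumor (2.56, adjusted p = 0.143, or −0.08 and 0.971 without Tb-5). *Cx3cl1*, the ligand of CX3CR1, and *Il34*, the second ligand of CSF1R, did not pass with DOX (−0.25, adjusted p = 0.33, and −0.42, adjusted p = 0.0885). Nor did *Ccl8* (−1.87, adjusted p = 0.0515, or 0.0186 to 0.187 with 1 library left out), which was at −2.68 (adjusted p = 0.0186) without DOX-1. *Csf2* had at most 3 counts in every library. Of the 7 ligands tested, 1 fell with DOX in hearts without a tumor, where 18.2% of all genes tested fell. That is near the share over all genes. With the tumor 2 of the 7 rose, where 5% of all genes did. With DOX in tumor-bearing hearts 0 passed in edgeR, 1 in DESeq2 and 3 at an unadjusted p under 0.05. Without Tb-DOX-4 2 did in edgeR (*Ccl7* and *Ccl8*, both lower), and without Tb-6 *Ccl7* did.

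The MHC class II genes, by which macrophages, dendritic cells and B cells present antigen, fell with DOX in both states. Of 5 tested, 4 fell in hearts without a tumor and 4 in tumor-bearing hearts, with medians of −3.08 and −2.61. *Cd74*, the invariant chain, was at 41.3 to 77.2 CPM in Control and 2.80 to 15.6 in DOX (−2.83, adjusted p = 8.21e-06), and at 29.4 to 72.2 in Tb and 6.93 to 17.2 in Tb-DOX (−2.47, adjusted p = 0.000333). Neither pair of ranges overlapped, and *Cd74* did not pass with the tumor alone (−0.01, adjusted p = 0.987). Of the other cells that carry these genes, the B cell gene *Ighm* fell with DOX in both states (−1.55 and −1.75, adjusted p = 0.000822 and 0.00201), and of the dendritic cell genes tested, *Zbtb46*, a transcription factor gene also expressed in endothelium, fell in hearts without a tumor, from 20.5 to 26.0 CPM in Control to 11.4 to 17.3 in DOX (−0.71, adjusted p = 0.0115). It did not pass in tumor-bearing hearts (0.02, adjusted p = 0.975), and *Clec9a* did not pass in either state (0.3 and 0.34, adjusted p = 0.412 and 0.495). The part of these cells in the drop was not tested.

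*Lyve1* is also a gene of lymphatic vessels, so lymphatic markers were read beside it. Their sum was 148 to 182 CPM in Control, 142 to 232 in DOX, 141 to 193 in Tb and 117 to 185 in Tb-DOX. The 6 markers did not move together with DOX in hearts without a tumor: *Prox1*, the lymphatic transcription factor, rose (0.56, adjusted p = 0.0284, lost without Control-1, Control-2, Control-3, DOX-2 or DOX-4, up to 0.105), *Ccl21a* (−2.35, adjusted p = 6.05e-07) and *Pdpn* (−0.98, adjusted p = 0.0178) fell, and *Mmrn1* (0.2, adjusted p = 0.627), *Flt4* and *Reln* did not pass. The share of *Lyve1* counts from lymphatic cells was not tested.

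**Figure D4:**
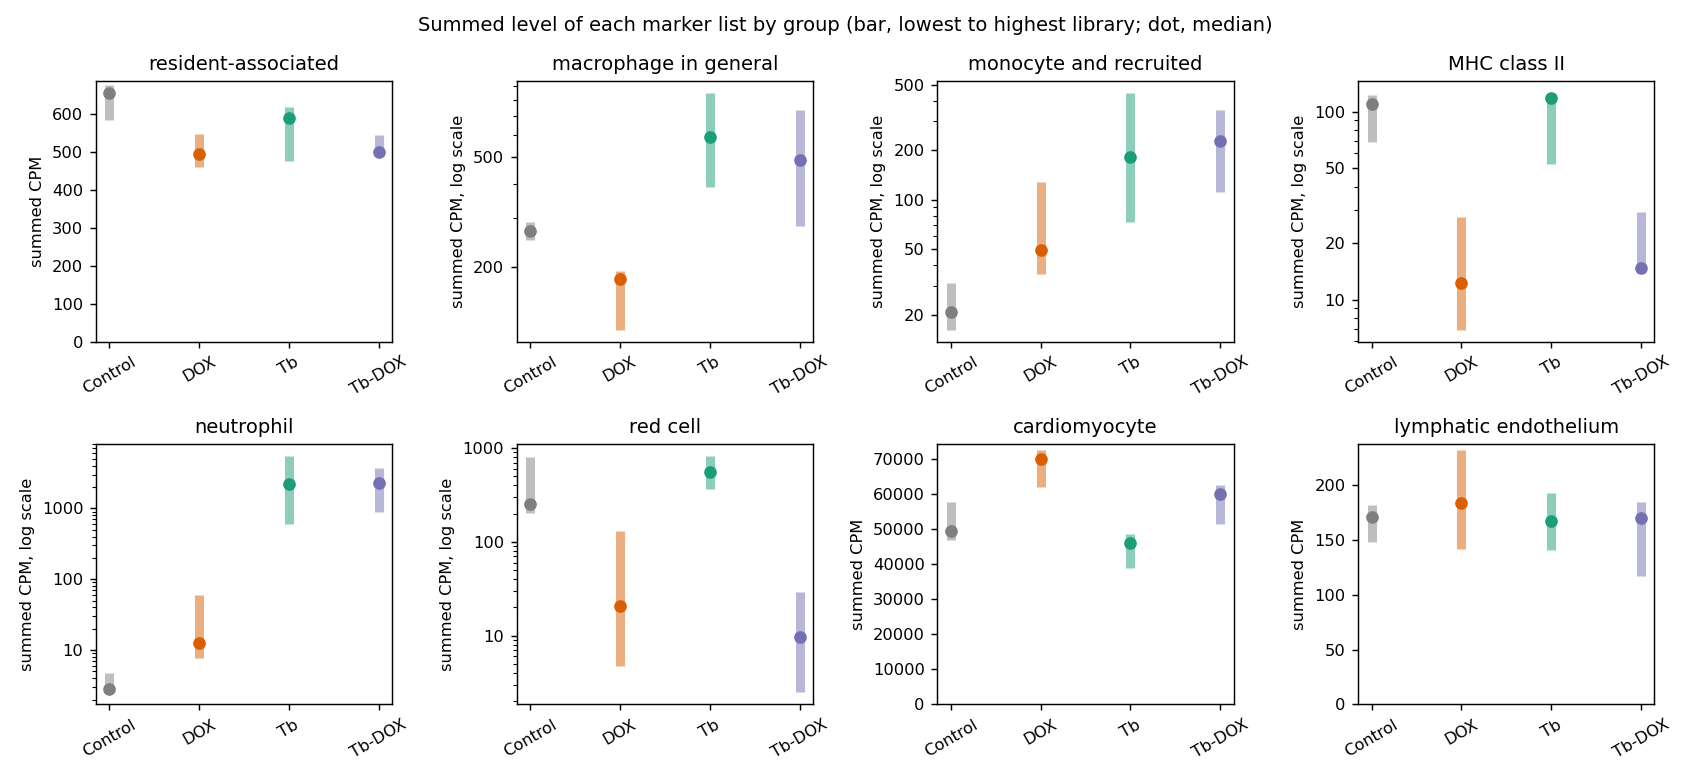
Summed TMM-scaled CPM of 8 marker lists by group; bars run from the lowest to the highest library and dots are medians, and axes marked so are on a log scale. MHC class II and red cell sums were low in both DOX-treated groups, and neutrophil sums were at 597 or above in every tumor-bearing library and at 60.5 or below in every other.

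Over the 21 libraries, the genes outside the 10 whose log2 CPM followed a receptor most closely were listed, with Pearson's r over the same libraries as a description. For *Csf1r* they were *Septin10* (0.94), *Ap1s2* (0.93), *Btbd3* (0.93), *Pros1* (0.91) and *Gatm* (0.91), for *Ccr2* *Sirpa* (0.92), *Cfp*, *Ttyh3*, *Rinl* and *Kctd12* (0.91 each), and for *Lyve1* *Stc1* (0.87), *Spon1* (0.83), *Tmem38b* (0.8), *Mylk* and *Slc36a4* (0.77 each). Among the 10 genes, *Csf1r* ran with *Adgre1* (0.94), *Ccr2* (0.91) and *Mrc1* (0.88) over all libraries, and after the group means were taken out the values were 0.75, 0.57 and 0.75, or 0.61, 0.42 and 0.69 without the 2 libraries farthest from the median of 1 gene of each pair (*Csf1r*, *Csf1r* and *Mrc1*). *Lyve1* and *Csf1r* had an r of 0.00 over all libraries and 0.15 with the group means taken out, or 0.40 without the 2 libraries farthest in *Lyve1*. All of these points share 4 groups, library depth and scaling.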

How the data were processed

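Each library's group and number come from its label. The submitters' processing notes list cutadapt, FastQC, HISAT2, HTSeq 0.6.1, DESeq2 1.34.0 and GRCm39, without roles, and strandedness and age are not given in the sources used here. The study's methods name oligo(dT) beads for mRNA enrichment, where the labels give beads or rRNA depletion. The authors deposited raw counts and FPKM side by side, and the deposited FPKM equals the count divided by gene length and library total in 100% of values (within 0.00501). Counts were tested in edgeR 4.0.16 (R 4.3.3) with TMM scaling and quasi-likelihood F tests, all 4 groups in 1 fit, over the 13990 genes whose mean FPKM reached 0.5, with Benjamini-Hochberg adjustment over all of them. *Timd4* was tested by exact permutation on log2(FPKM + 0.1). The same test was run on the other genes, without adjustment over genes. Where edgeR made no call, its p was under 0.05 in DOX against Control for *Folr2* (0.0317) and *Cd163* (0.0476). In Tb-DOX against DOX it was so for *Mrc1* (0.0397), *Cd163* (0.0476) and *Cx3cr1* (0.0238). Levels between genes were compared by FPKM only. On simulated data for DOX against Control, 64 of 98 genes changed by 1 on the log2 scale and 88 of 102 changed by 2 were recovered, with 9 false calls. Replicates differed by more than counting error (chi-square per degree of freedom at least 5.74), and same-numbered libraries deviated together at r of −0.273 to 0.243, so numbers were not taken as pairs. The 10 genes and all lists were chosen with earlier results of these data known. From the lists, the 3 most abundant genes, up to 3 called genes with the smallest adjusted p for DOX, and all ligands and Ly6 neighbours were eligible to be named. *Mertk*, *Mgl2*, *Spi1*, *Itgam*, *Flt4*, *Reln*, *Pdgfra* and the T cell markers beside *Cd3e* were named after their values were seen. Coding sequences came from GENCODE M21 (GRCm38), promoters from RefSeq, and positions from the deposited table. Alternatives were median-ratio scaling, library totals, no filter, filterByExpr, robust moderation, DESeq2 1.42.0, limma 3.58.1 on log2 FPKM, a replicate block, only the groups compared, stricter thresholds, leaving out each library, and, chosen after seeing the data, leaving out DOX-4 and Tb-5.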

Additional observations from a re-analysis of the deposited data

Results flagged for a closer look

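In 5 of 40 groups of values (a gene in a group of libraries), 1 library lay farther from its neighbours than Dixon's 95% limit allows, where chance gives about 1 in 20. *Lyve1* was at 32.5 CPM in DOX-1, the next DOX library being at 18.8. *Timd4* was at 0.398 CPM in DOX-5, the next at 0.0666. *Folr2* was at 1.37 CPM in Tb-DOX-4, the next at 0.797. *Adgre1* was at 2.92 CPM in Control-3, below the next Control library at 5.58. *Cx3cr1* was at 3.55 CPM in Tb-DOX-3, the next at 1.52. None of these 5 libraries is DOX-4 or Tb-5, which stood apart in *Cd3e*.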

How the results depend on the processing

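With DOX in hearts without a tumor, the 6 calls became 4 to 7 under the alternatives run. In tumor-bearing hearts, 4 calls became 2 with library totals, 2 with only the groups compared, 1 at an adjusted p under 0.01, 2 with a minimum log2 fold change of 1, and 1 to 4 when a library was left out (1 without Tb-2, Tb-DOX-1 or Tb-DOX-5). With the tumor alone, 2 became 1 at an adjusted p under 0.01 or with the minimum fold change, and 1 to 2 when a library was left out. In Tb-DOX against DOX, 3 became 6 with library totals, 5 with DESeq2, and 3 to 5 when a library was left out. The interaction went from 0 to 2 with library totals, 3 with DESeq2, and 0 to 2 when a library was left out. The replicate block gave 6, 3, 2, 3 and 0 calls in the order above and lost 1 call of a gene, that of *Folr2* in tumor-bearing hearts (adjusted p = 0.0672). Of 1521 values of single genes under alternatives, 1417 kept direction and side of the threshold, 50 lost and 29 gained a call, and 25 turned direction, none of them a call. In Tb against Control, *Cd163* turned to −0.11 with the replicate block and to between −0.09 and 0.00 when a library was left out (0.15 at the highest), *Folr2* ranged from −0.1 to 0.25 and *Cx3cr1* from −0.14 to 0.51 when a library was left out. In Tb-DOX against Tb, *Cd163* ranged from −0.02 to 0.24. In Tb-DOX against DOX, *Ly6c2* was 0.15 with library totals, 0.07 and 0.06 with limma at pseudocounts of 0.1 and 1, 0.02 without DOX-4 and Tb-5, and −0.18 to 0.15 when a library was left out. For the interaction, *Lyve1* was 0.02 with library totals, 0.11 and 0.09 with limma, and −0.27 to 0.13 when a library was left out, and *Ccr2* was −0.2 with limma at a pseudocount of 1. With library totals the median over all genes tested, on the log2 scale, was −0.14 for DOX against Control, 0.14 for the interaction and 0.18 for Tb-DOX against DOX. The causes were not tested. Depth limits *Timd4*, *Cx3cr1*, *Folr2* and *Ly6c2*, which rest on the fewest counts.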
